A study of Mus musculus with 9 samples.

Results

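B7 ligands and butyrophilins were followed in T15, a cell line established from a murine Smarcb1-negative peripheral T cell lymphoma (PTCL) model. The set held 10 listed genes of the 35288 in the deposited count table, namely the B7 family members Cd86, Cd80, Cd274, Pdcd1lg2, Vsir, Icosl and Cd276 and the butyrophilin members Btn1a1, Btn2a2 and Btnl9. Btn1a1 was chosen by the size of its log2 fold changes against Control in these libraries, so its values are given as a description without a test. Of the 10 genes, 6 (Btn1a1, Btn2a2, Cd86, Cd274, Vsir and Icosl) passed the filter on low counts and 4 (Cd80, Pdcd1lg2, Cd276 and Btnl9) did not.

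RNA-seq had been performed on 9 libraries. The 3 Control libraries were from T15 control cells. For the SAHA group, 3 libraries came from T15 cells exposed for 72 h to 1 µM SAHA (vorinostat), an inhibitor of histone deacetylases. For the Smarcb1-RE group, 3 libraries came from T15 cells carrying a lentiviral, doxycycline (Dox) inducible Smarcb1 cDNA in the pInducer20 backbone, selected with G418 and induced for 72 h with 0.5 µg/µl Dox. Smarcb1 is a core subunit of the SWI/SNF chromatin remodelling complex and is missing from the parental line. The study's text calls the Control cells untreated. The treatment notes in the labels mention a vehicle and a control plasmid but do not say whether the Control libraries had received either. Effects of transduction, selection and Dox therefore cannot be told apart from those of Smarcb1, and both treated groups were set against the same 3 Control libraries. The study reports strong induction of apoptosis in this cell line at the SAHA dose used here, with most cells dead. It reports no effect of re-expression on viability. The part of cell death in the SAHA values was not tested. Each group rests on a single cell line, and the labels do not say whether the Smarcb1-RE replicates are clones.

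B7 ligands are membrane proteins of the immunoglobulin superfamily that T cells read through CD28, CTLA-4, PD-1, ICOS and related receptors. Cd86 and Cd80 deliver costimulation through CD28 and are bound by CTLA-4, whereas Cd274 (PD-L1) and Pdcd1lg2 (PD-L2) engage PD-1 and dampen T cell activity. Butyrophilins share the extracellular fold of the B7 proteins. Most B7 ligands are studied on antigen-presenting cells and tumor cells, but activated and malignant T cells can carry them as well.

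Library totals were between 20900424 and 24941408 estimated counts, and 3 counts, taken as the floor, corresponded to 0.123 to 0.133 CPM, the count scaled to a common library size with TMM factors. Smarcb1 lay at 0.0850 to 0.329 CPM in Control, 0.129 to 0.575 in SAHA and 6.12 to 6.51 in Smarcb1-RE, with reads of the cDNA and of the endogenous gene counted together. The T cell label was met in part. Of 11 T cell markers, 7 passed the filter (Cd3d, Cd3e, Cd3g, Cd247, Lck, Trac and Cd8a), with a summed level of 2864 to 3107 CPM over the 9 libraries, while Cd4 had no count and Cd2, Cd5 and Thy1 had at most 6 counts in any library. The study describes lymphomas of a Smarcb1 mouse model as CD8-positive and CD4-negative, so missing Cd4 is no departure from that description. In bulk RNA, fewer cells that carry a transcript cannot be told apart from less of it per cell.

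Levels of different members were compared as CPM per kilobase of the longest annotated transcript. In Control, Cd86 (8.79 ± 0.272, SD, n = 3) and Vsir (8.58 ± 0.267) differed by less than their spread and were followed by Cd274 (5.64 ± 0.231). Far lower came Btn2a2 (0.266 ± 0.0679), Icosl (0.169 ± 0.0389) and Btn1a1 (0.114 ± 0.0244), for which the ranges of mean ± SD overlapped between neighbours in this order. Cd80 was at 0.0482, Btnl9 at 0.0343 and Pdcd1lg2 at 0.00815 CPM per kilobase, and Cd276 had no count. Control cells thus held 3 well-measured members, Cd86, Vsir and Cd274, and 7 with means below 1 CPM.

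**Figure D1:**
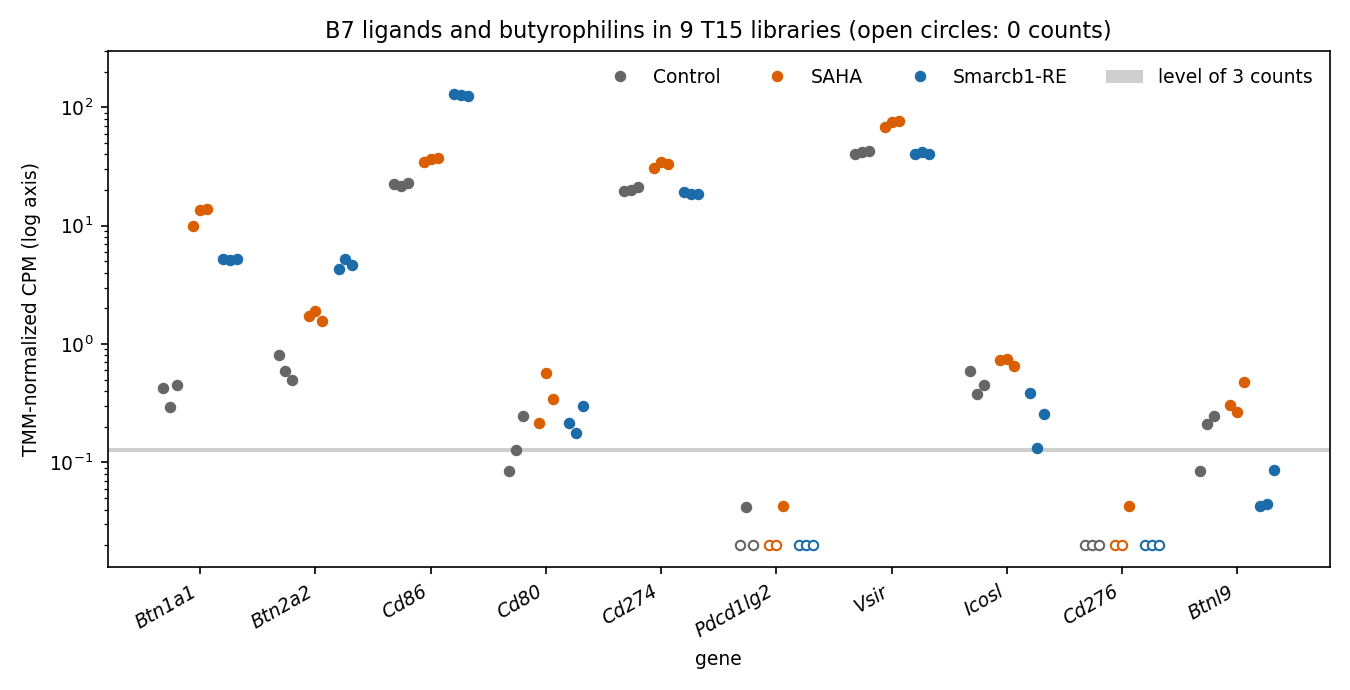
TMM-normalized CPM (log axis) of the 10 members in each of the 9 libraries, with Control in gray, SAHA in orange and Smarcb1-RE in blue. The gray band marks the level of 3 counts, and open circles mark 0 counts. Cd86, Cd274 and Vsir lay at 18.4 CPM or above in every library. Btn1a1 was at 0.296 to 0.452 CPM in Control and at 5.09 to 13.9 CPM in the treated libraries.

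To show the sequence that precedes members with different behavior, 250 bases upstream of the RefSeq transcript start (GRCm38.p6, 5′ to 3′ on the gene's strand) are printed for 4 genes. They are Cd274 (chr19:29367188-29367437, plus strand) and its neighbour Pdcd1lg2, which had at most 1 count in any library (chr19:29410669-29410918, plus strand), Btn2a2 (chr13:23488858-23489107, minus strand) and Vsir (chr10:60346601-60346850, plus strand). Capitals mark matches on either strand to an interferon-stimulated response element (ISRE) core, GAAANNGAA, to a CCAAT box, CCAAT, and to a GC box, GGGCGG.
Cd274: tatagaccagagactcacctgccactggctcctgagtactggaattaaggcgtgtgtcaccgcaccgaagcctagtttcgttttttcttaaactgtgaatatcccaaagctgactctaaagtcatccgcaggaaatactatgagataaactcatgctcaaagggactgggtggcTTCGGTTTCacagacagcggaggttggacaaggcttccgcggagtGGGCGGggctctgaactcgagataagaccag
Pdcd1lg2: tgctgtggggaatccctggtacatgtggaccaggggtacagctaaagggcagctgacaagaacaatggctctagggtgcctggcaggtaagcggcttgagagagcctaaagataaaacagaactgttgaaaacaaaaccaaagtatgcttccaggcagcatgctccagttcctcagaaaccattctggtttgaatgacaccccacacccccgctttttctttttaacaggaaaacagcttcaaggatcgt
Btn2a2: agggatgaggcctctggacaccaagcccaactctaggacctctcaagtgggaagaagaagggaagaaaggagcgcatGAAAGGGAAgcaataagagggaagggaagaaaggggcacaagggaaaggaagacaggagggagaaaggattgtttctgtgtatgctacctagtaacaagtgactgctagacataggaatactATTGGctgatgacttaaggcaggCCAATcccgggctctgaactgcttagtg
Vsir: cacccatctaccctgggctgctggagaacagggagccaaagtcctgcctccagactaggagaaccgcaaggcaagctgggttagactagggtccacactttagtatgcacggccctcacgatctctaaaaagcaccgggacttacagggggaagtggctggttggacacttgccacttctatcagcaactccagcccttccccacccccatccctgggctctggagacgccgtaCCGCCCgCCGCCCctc

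The Cd274 window held an ISRE core match on the opposite strand, 76 to 68 bases before the start, and a GC box match 31 to 26 bases before it. Plgrkt starts 65 bases from Cd274 in GENCODE, in the opposite orientation. The ISRE core match of this window therefore also falls within the annotated Plgrkt gene. In Btn2a2 the ISRE core match lay 173 to 165 bases before the start, with CCAAT matches at 51 to 47 and 28 to 24 bases. Vsir held a pair of GC box matches within 16 bases of the start, and Pdcd1lg2 held none of the motifs. Matches did not share bases with each other. Windows were matched for 8 of the 10 members, all but Btn1a1 and Cd86. The ISRE core was present in 2 of the 8 and in 7.13% of 32851 such windows in the RefSeq table, the CCAAT box in 4 of 8 and 33.8%, and the GC box in 4 of 8 and 32.7%. A gamma-activated site (TTCNNNGAA, 7.02% of all windows) and a cAMP response element (TGACGTCA, 1.55%) were found in none of the 8. A match describes letters in a window and is not a mapped binding site.

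Under SAHA, Btn2a2, Cd86, Cd274 and Vsir were higher than in Control and no member was lower, while Btn1a1, chosen by its change, is described apart. By edgeR's quasi-likelihood test with Benjamini-Hochberg adjustment over all 13697 genes, 4 of the 5 members tested (Btn2a2, Cd86, Cd274 and Vsir, with Btn1a1 left out of all counts) were called higher, where 32.6% of all genes past the filter were called higher, 34.3% lower and 66.9% in either direction. The median log2 fold change of the 5 was 0.69, and that of all genes was 0.00. With Smarcb1 re-expression, 2 of the 5 (Btn2a2 and Cd86) were called higher and none lower, against 39.2% higher, 38.6% lower and 77.8% in either direction among all genes past the filter. The median of the 5 was -0.04, against 0.01 for all genes. Icosl reached the filter's level of 0.418 CPM (before TMM scaling) in 2 Control, 3 SAHA and no Smarcb1-RE libraries, so it was kept through the group in which it was highest. Scaling by library totals alone moved the median of all genes in this comparison to 0.17 and the split of all calls from 5371 higher and 5282 lower to 6476 higher and 4141 lower. The sets of members called in the 2 comparisons were not compared by a test, since both use the same Control libraries.

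**Figure D2:**
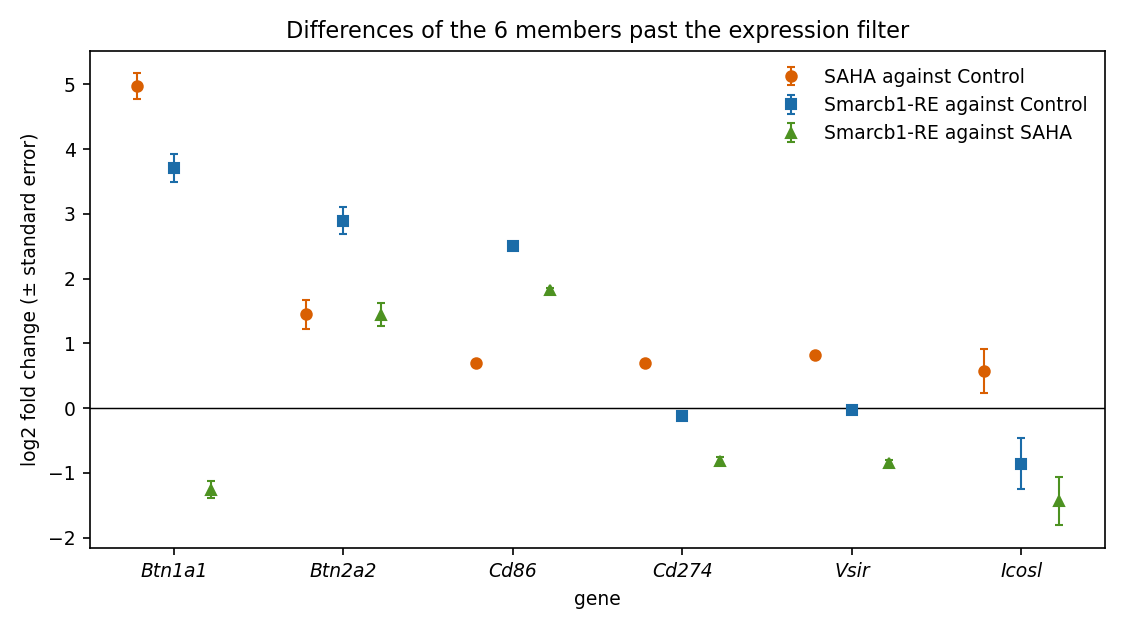
Log2 fold changes (vertical axis, ± standard error) of the 6 members past the filter, for SAHA against Control (orange circles), Smarcb1-RE against Control (blue squares) and Smarcb1-RE against SAHA (green triangles). SAHA values were all above 0 (0.57 to 4.97). Smarcb1-RE values ranged from -0.86 for Icosl to 3.71 for Btn1a1. The near-zero values of Cd274 (-0.12) and Vsir (-0.04) turned positive with scaling by library totals.

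Btn1a1 (ENSMUSG00000000706, chromosome 13, 23456992 to 23465901, minus strand, GENCODE M21 on GRCm38), named for the butyrophilin of the milk fat globule membrane, was barely detected in Control, with 10, 7 and 11 counts or 0.425, 0.296 and 0.452 CPM. In SAHA it stood at 9.92, 13.6 and 13.9 CPM (229, 308 and 322 counts), and in Smarcb1-RE at 5.25, 5.09 and 5.26 CPM (123, 115 and 122 counts). All treated libraries lay above all Control libraries, and all SAHA libraries above all Smarcb1-RE libraries. The means were 0.391 ± 0.0836, 12.5 ± 2.21 and 5.20 ± 0.0947 CPM (SD, n = 3). Fitted log2 fold changes against Control were 4.97 ± 0.20 (SE) for SAHA and 3.71 ± 0.22 for Smarcb1-RE, and that of Smarcb1-RE against SAHA was -1.26 ± 0.13. Btn1a1 thereby held the 17th highest log2 fold change of 13697 under SAHA and the 142nd with Smarcb1 re-expression. It was chosen by the size of these changes, so its ranks follow from the choice. All 9 deposited values of Btn1a1 were whole numbers, so none of them showed reads divided with another gene.

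The 12 genes listed for milk fat globule secretion summed to 39.5 to 46.0 CPM in Control, 59.9 to 64.9 in SAHA and 94.9 to 99.9 in Smarcb1-RE. Most of this came from Mfge8, a milk fat globule glycoprotein that is also widely expressed outside the breast, with means of 29.0, 43.3 and 73.2 CPM, and from Xdh, xanthine dehydrogenase, with 9.37, 16.4 and 17.7 CPM. Both were chosen after their values were seen. Of the 5 genes past the filter, 3 were higher and 1 lower by edgeR in each comparison with Control. Among all genes past the filter, 32.6% were higher and 34.3% lower in SAHA, and 39.2% and 38.6% in Smarcb1-RE. The lower gene was Muc1 in SAHA (-1.09 ± 0.20) and Plin2 in Smarcb1-RE (-1.05 ± 0.39), both also named after their values were seen. Muc1 was at 0.40 in Smarcb1-RE and Plin2 at -0.85 in SAHA, neither called. Among those called higher was Elf5, a transcription factor of the mammary epithelium, which had 6, 7 and 3 counts in Control, 15, 14 and 11 under SAHA and 16, 19 and 16 in Smarcb1-RE and passed the filter only through the treated groups. The milk protein genes Csn1s1, Csn2, Lalba and Wap were among those that did not pass.

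The genes whose profiles over the 9 libraries were nearest to that of Btn1a1 were H2-Ab1, Igfbp5, Enpp2, Atp1b2 and Celf5. Likeness was the root mean square difference of log2 CPM after centering each gene on its own mean, computed for 11318 genes, and gave 0.346 for H2-Ab1, a class II MHC beta chain, 0.483 for Igfbp5, an insulin-like growth factor binding protein, 0.563 for Enpp2, which encodes autotaxin, 0.613 for Atp1b2, a sodium-potassium pump subunit, and 0.617 for Celf5, an RNA-binding protein. Mean H2-Ab1 was 0.363 CPM in Control, 13.7 in SAHA and 3.34 in Smarcb1-RE. The 9 points of each profile come from 3 groups, and the likeness is given without a test.

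Btn2a2 (ENSMUSG00000053216, chromosome 13, 23477676 to 23488857, minus strand), a butyrophilin known to restrain T cell activation, lies 11.8 kb from Btn1a1 but had another order of groups. It was at 0.808, 0.592 and 0.494 CPM in Control (19, 14 and 12 counts), 1.73, 1.90 and 1.55 CPM in SAHA and 4.31, 5.22 and 4.61 CPM in Smarcb1-RE. The 3 groups did not overlap, and Smarcb1-RE was the highest, whereas Btn1a1 was highest in SAHA. The log2 fold change was 1.45 ± 0.23 for SAHA (adjusted p = 0.000101, edgeR), 2.89 ± 0.21 for Smarcb1-RE (adjusted p = 5.24e-08) and 1.45 ± 0.18 for Smarcb1-RE against SAHA (adjusted p = 1.23e-05). Per kilobase, the ratio of Btn1a1 to Btn2a2 was 0.448 ± 0.162 in Control, 5.04 ± 1.12 in SAHA and 0.769 ± 0.0860 in Smarcb1-RE (SD, n = 3). Btnl9, the remaining butyrophilin member, had 2, 5 and 6 counts in Control, 7, 6 and 11 under SAHA and 1, 1 and 2 in Smarcb1-RE, and was not tested.

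Of 21 further B7 and butyrophilin genes, including the Skint family, Ermap and Skint8 passed the filter. Ermap, an erythroid membrane protein of the butyrophilin group, had 2, 0 and 2 counts in Control, 3, 7 and 4 under SAHA and 12, 14 and 13 in Smarcb1-RE. It passed the filter only through Smarcb1-RE, the group in which it was highest, and is given without a test or a fold. Skint8 had 56, 38 and 34 counts in Control, 61, 62 and 56 under SAHA and 113, 97 and 129 in Smarcb1-RE, with log2 fold changes of 0.53 ± 0.21 (adjusted p = 0.0371, edgeR) and 1.45 ± 0.20 (adjusted p = 2.07e-05) and no overlap with Control. Reads of both genes had been divided with other genes, as 7 of 9 values of Ermap and 9 of 9 of Skint8 were not whole numbers, and their values are uncertain.

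Genes around Btn1a1 and Btn2a2 moved in both directions. Within 100 kb of Btn1a1, 8 tested genes were found. Under SAHA 3 were higher, 2 lower and 3 not called, where 32.6% of all genes were higher and 34.3% lower. With Smarcb1 re-expression 4 were higher, 2 lower and 2 not called, where 39.2% of all genes were higher and 38.6% lower. Hist1h3e, among those higher in both, passed the filter only through the treated groups. On the left, the nearest was Abt1 (33.1 kb), a basal transcription activator, with log2 fold changes of 0.09 (adjusted p = 0.137, edgeR) and -0.90 (adjusted p = 1.39e-08). On the right of Btn2a2 followed histone genes, whose reads can be shared with near-identical copies. Hist1h2af, the nearest at 45 kb, was at -2.38 and -2.14.

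**Figure D3:**
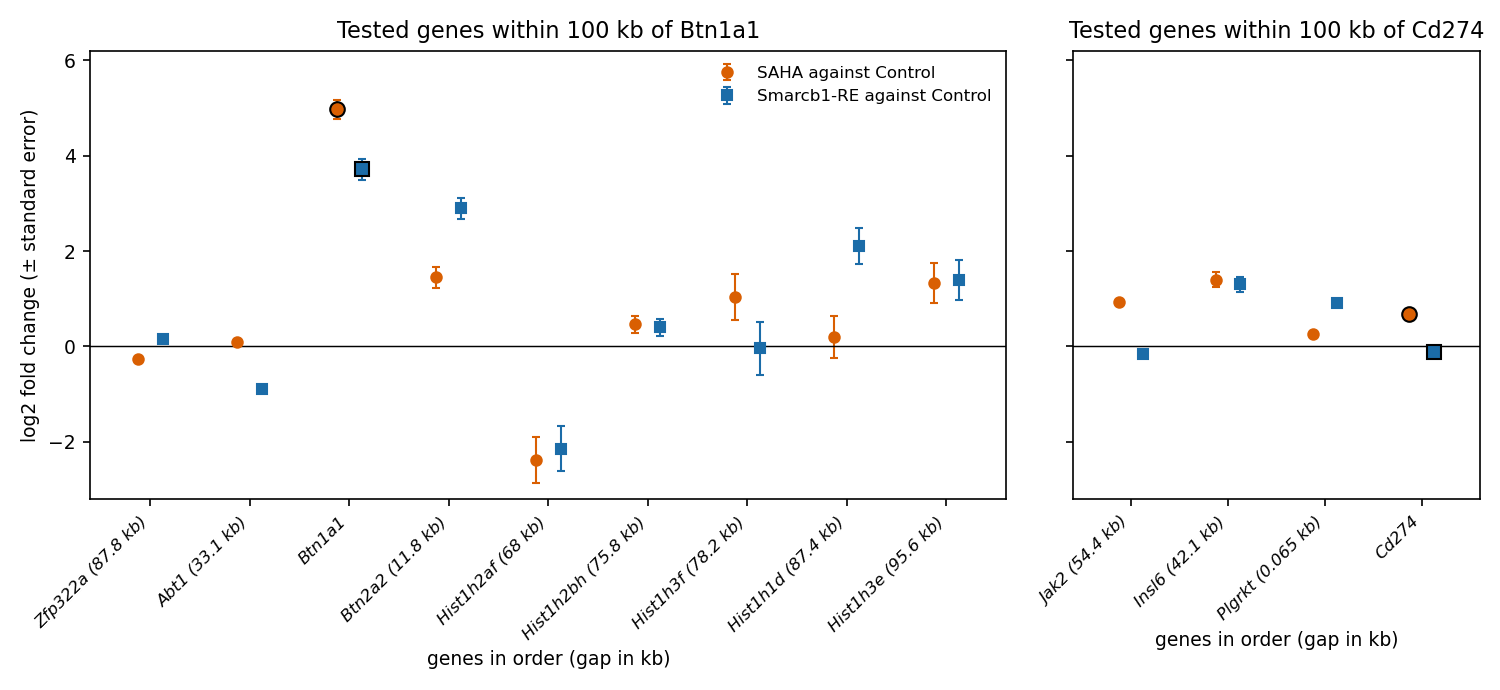
Log2 fold changes (± standard error) of the tested genes within 100 kb of Btn1a1 (left) and Cd274 (right), in chromosome order with the gap to the member in brackets. SAHA against Control is in orange and Smarcb1-RE against Control in blue, and Btn1a1 and Cd274 are outlined in black. Btn1a1 (4.97 and 3.71), chosen by the size of these values, stood above its neighbours, of which Btn2a2 was nearest in value (1.45 and 2.89). Next to Cd274, Plgrkt was at 0.26 and 0.92.

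Cd86 (ENSMUSG00000022901, chromosome 16, 36603869 to 36666081, minus strand), the CD28 ligand, was the member with the highest level in Smarcb1-RE. It was at 22.5, 21.6 and 22.9 CPM in Control, 34.7, 36.2 and 37.3 CPM in SAHA and 129, 128 and 124 CPM in Smarcb1-RE. The groups did not overlap, and the gap between Smarcb1-RE and the other libraries was far wider than the spread within any group. The log2 fold change was 0.69 ± 0.05 for SAHA (adjusted p = 9.96e-08, edgeR), 2.51 ± 0.05 for Smarcb1-RE (adjusted p = 5.96e-13) and 1.82 ± 0.04 for Smarcb1-RE against SAHA (adjusted p = 4.04e-12). Cd80, the other CD28 ligand, remained close to the floor, with 2, 3 and 6 counts in Control, 5, 13 and 8 under SAHA and 5, 4 and 7 in Smarcb1-RE. In T15 cells the CD28 ligand transcripts were therefore almost entirely those of Cd86 in every group.

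Both tested genes within 100 kb of Cd86 were called higher in Smarcb1-RE, as were 39.2% of all genes past the filter. Ildr1, 27.9 kb away, reached the filter's level in 1 of 3 Control libraries and was kept through the treated groups, so its call is no independent support. It was at 2.30 ± 0.28 in Smarcb1-RE and at 0.69 ± 0.32 in SAHA (not called), given without p-values. Slc15a2, a peptide transporter gene at 84.1 kb that was named after its values were seen, was at 1.88 ± 0.09 in Smarcb1-RE and 1.25 ± 0.09 in SAHA. Of 4 tested genes near Cd80, 3 were lower and none higher in SAHA and 2 were lower and none higher in Smarcb1-RE. The shares of all genes called lower were 34.3% and 38.6%. The nearest to Cd80 were Timmdc1 (0.06 and -0.08, neither called) and Adprh (-0.65 and -0.23, both lower).

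Cd86 and several other members are well known on B cells, macrophages and dendritic cells, so markers of these cells were read in the same libraries. The summed level of 6 B cell markers was 1.02 to 1.31 CPM in Control, 1.33 to 1.95 in SAHA and 7.34 to 8.23 in Smarcb1-RE. This rested on Ms4a1 (2.08 ± 0.20 in Smarcb1-RE, adjusted p = 5.86e-07, edgeR) and on Pax5, which had 0, 6 and 1 counts in Control, 22, 11 and 20 under SAHA and 89, 92 and 88 in Smarcb1-RE and passed the filter only through the treated groups. Cd79a, Cd79b and Cd22 had at most 6 counts in any library. For 8 macrophage and monocyte markers the sum was 2.07 to 2.55, 5.72 to 7.41 and 1.85 to 1.92 CPM. Here Cd68 alone passed the filter (1.99 ± 0.16 in SAHA, adjusted p = 3.83e-07, edgeR). Itgam had another order of groups, with 12, 8 and 11 counts in Control, 0, 1 and 1 under SAHA and 2, 2 and 3 in Smarcb1-RE. Lyz2 had 4, 2 and 2 counts in Control and none in SAHA, Fcgr1 had no count, and Csf1r, Adgre1 and Cd14 had at most 3 in any library.

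For 7 dendritic cell markers the sum was 0.423 to 0.808 CPM in Control, 3.60 to 4.42 in SAHA and 1.83 to 2.08 in Smarcb1-RE, the same order of groups as Btn1a1. Zbtb46 carried most of it, with 10, 6 and 3 counts in Control, 67, 84 and 82 under SAHA and 24, 24 and 32 in Smarcb1-RE. Xcr1 had another order, with 7, 2 and 9 counts in Control, 12, 14 and 6 under SAHA and 15, 19 and 14 in Smarcb1-RE, and both passed the filter only through the treated groups. Clec9a and Cd209a had no count and Itgax, Flt3 and Siglech had at most 3. The sum of 7 epithelial and mammary markers was 1.10 to 1.701, 3.03 to 3.83 and 0.776 to 0.885 CPM. It rested mostly on Epcam in Control and SAHA and on Elf5 in Smarcb1-RE, with at most 4 counts of Krt8, Krt18, Krt5 or Cdh1. Epcam had 29, 17 and 24 counts in Control, 54, 69 and 77 under SAHA and 3, 0 and 2 in Smarcb1-RE. It was kept by the filter through Control and SAHA, whereas Elf5 was higher in both treated groups. The part of these transcripts in the results for Cd86 and Btn1a1 was not tested.

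Cd274 (ENSMUSG00000016496, chromosome 19, 29367455 to 29388095, plus strand), which encodes the PD-1 ligand PD-L1 and whose upstream window is printed above, was higher in SAHA alone. It was at 19.7, 20.2 and 21.3 CPM in Control, 30.8, 34.8 and 33.2 CPM in SAHA and 19.4, 18.4 and 18.5 CPM in Smarcb1-RE. The SAHA libraries lay above all others, and the Smarcb1-RE libraries lay just under the Control libraries. The log2 fold change was 0.69 ± 0.06 for SAHA (adjusted p = 5.48e-07, edgeR) and -0.81 ± 0.06 for Smarcb1-RE against SAHA (adjusted p = 6.9e-08). Smarcb1-RE against Control gave -0.12 ± 0.06 (adjusted p = 0.0891), which turned to 0.035 (adjusted p = 0.625) with library totals alone and to -0.14 (adjusted p = 0.0416) without SAHA replicate 1, which enters through the joint fit. All 9 values were not whole numbers, so a share of its reads had been divided with another gene. Pdcd1lg2, which encodes PD-L2 and starts 22.8 kb beyond the end of Cd274, had 1 count in Control replicate 2, 1 in SAHA replicate 3 and none elsewhere.

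Genes next to Cd274 differed among themselves. Plgrkt, which encodes a plasminogen receptor and lies 65 bases away in the opposite orientation, was higher in both comparisons, at 0.26 ± 0.06 for SAHA (adjusted p = 0.00298, edgeR) and 0.92 ± 0.06 for Smarcb1-RE (adjusted p = 3.01e-08). Jak2, a kinase in the interferon signaling that induces Cd274, was named after its values were seen. It lies 54.4 kb away and was at 96.5, 103 and 97.4 CPM in Control, 199, 182 and 189 CPM in SAHA and 90.0, 91.0 and 87.1 CPM in Smarcb1-RE. It was higher in SAHA (0.94 ± 0.04, adjusted p = 5.37e-09, edgeR) and lower in Smarcb1-RE (-0.15 ± 0.05, adjusted p = 0.0102). Insl6, also named after its values were seen, was higher in both (1.40 and 1.30). Beyond Pdcd1lg2, Ric1 at 51.1 kb was at -0.08 (not called) and -0.28 (lower).

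Of 25 listed regulators of PD-L1 and other B7 proteins, 23 were tested. In SAHA 12 were higher, 6 lower and 5 not called, where 32.6% of all genes were higher and 34.3% lower. In Smarcb1-RE 5 were higher, 9 lower and 9 not called, where 39.2% of all genes were higher and 38.6% lower. The medians of the list were 0.17 and -0.05. Irf8, an interferon regulatory factor of myeloid and B cells, had the largest change of the list in both, and in opposite directions. It was at 2.68, 3.30 and 3.002 CPM in Control, 14.5, 19.4 and 19.3 CPM in SAHA and 0.341, 0.531 and 0.474 CPM in Smarcb1-RE, with log2 fold changes of 2.56 ± 0.14 (adjusted p = 1.26e-08, edgeR) and -2.73 ± 0.23 (adjusted p = 2.45e-07). Ciita and March1 did not pass the filter.

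Vsir (ENSMUSG00000020101, chromosome 10, 60346851 to 60372684, plus strand), which encodes the inhibitory B7 protein VISTA, had the same order of groups as Cd274. It was at 40.1, 42.1 and 42.5 CPM in Control, 68.3, 74.5 and 76.4 CPM in SAHA and 39.9, 41.7 and 40.1 CPM in Smarcb1-RE. SAHA stood apart, whereas Control and Smarcb1-RE overlapped. The log2 fold change was 0.81 ± 0.05 for SAHA (adjusted p = 3.08e-08, edgeR) and -0.85 ± 0.05 for Smarcb1-RE against SAHA (adjusted p = 8.8e-09). For Smarcb1-RE against Control it was -0.04 ± 0.05 (adjusted p = 0.543), and the sign turned with library totals alone (0.12, adjusted p = 0.0543). Vsir lies over Cdh23 on the opposite strand, which had at most 2 counts in any library. Psap, the only tested gene within 100 kb, was at 0.02 (adjusted p = 0.631, edgeR) and -0.41 (adjusted p = 3.3e-07).

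Icosl (ENSMUSG00000000732, chromosome 10, 78069302 to 78083913, plus strand), the ligand of ICOS, was near the floor. It had 14, 9 and 11 counts in Control, 17, 17 and 15 under SAHA and 9, 3 and 6 in Smarcb1-RE. SAHA lay above the other groups, and Control and Smarcb1-RE overlapped. The log2 fold change was 0.57 ± 0.34 for SAHA (adjusted p = 0.152, edgeR), -0.86 ± 0.40 for Smarcb1-RE (adjusted p = 0.0634) and -1.43 ± 0.38 for Smarcb1-RE against SAHA. Since Icosl was kept by the filter through SAHA, the group in which it was highest, the last value is given without a p-value. Without Smarcb1-RE replicate 1, the difference of Smarcb1-RE from Control was -1.27 (adjusted p = 0.0276). Of 5 tested genes within 100 kb of Icosl, 4 were lower in each comparison with Control. Among all genes past the filter, 34.3% were lower in SAHA and 38.6% in Smarcb1-RE. The 4 included Pfkl (-1.13 in both), a glycolytic phosphofructokinase, and D10Jhu81e (-0.28 and -0.48). Cd276, which encodes B7-H3, had 1 count in SAHA replicate 3 and none in the other libraries.

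Set directly against SAHA, Smarcb1-RE was higher for 2 of the 5 members tested (Btn2a2 and Cd86) and lower for 3 (Cd274, Vsir and Icosl). Among all genes past the filter, 37.7% were higher, 36.8% lower and 74.6% in either direction. Icosl was kept by the filter through SAHA, the group in which it was highest, so its call is no independent support. With at least 10 counts in every library, Icosl was not tested and 2 members were lower. The median of the 5 was -0.81, against 0.02 for all genes. With library totals alone, the split of all calls moved from 5170 higher and 5042 lower to 6441 and 3924, and the 5 members kept their direction and call.

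The make-up of the set was summarized as each member's share of the summed CPM per kilobase. The sum was 23.6 ± 0.580 in Control, 43.2 ± 2.54 in SAHA and 67.3 ± 1.20 in Smarcb1-RE (SD, n = 3). Cd86 held 37.2% of it in Control, 32.9% in SAHA and 74.4% in Smarcb1-RE. Vsir held 36.3%, 34.9% and 12.4%, and Cd274 23.8%, 21.1% and 7.69%. Btn1a1 went from 0.482% to 8.39% and 2.26%, and Btn2a2 from 1.13% to 1.69% and 2.96%. Cd86, Vsir and Cd274 led in every group, with Cd86 first in Control and Smarcb1-RE and Vsir first in SAHA. Per kilobase, the ratio of Cd86 to Cd274 was 1.56 ± 0.0568 in Control, 1.56 ± 0.0665 in SAHA and 9.67 ± 0.232 in Smarcb1-RE.

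**Figure D4:**
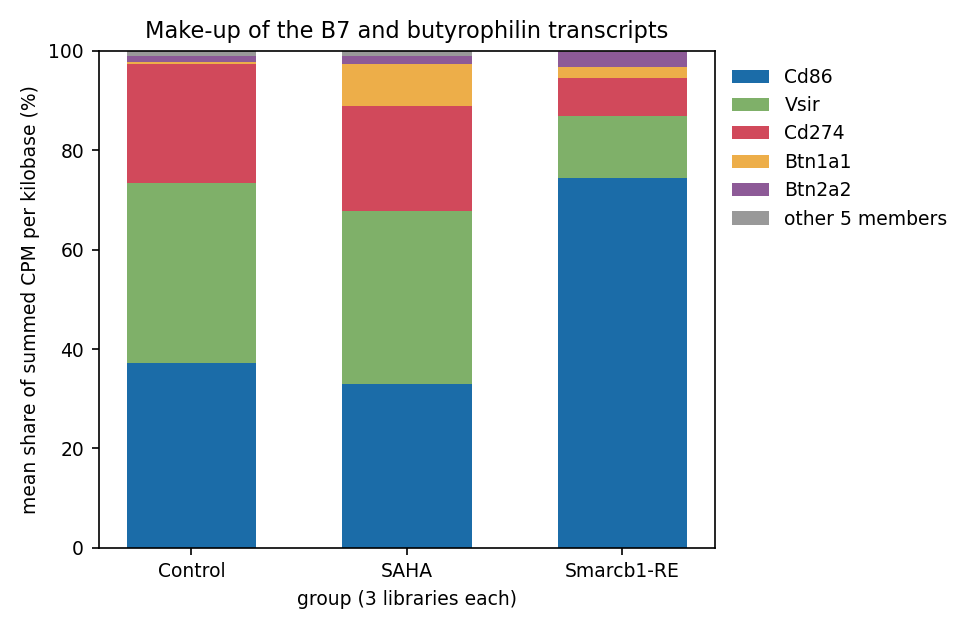
Mean share (percent, vertical axis) of each member in the summed CPM per kilobase of the 10 members, by group of 3 libraries, as stacked bars. Cd86 held 37.2%, 32.9% and 74.4% in Control, SAHA and Smarcb1-RE, and Btn1a1 was largest in SAHA at 8.39%.

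T15 cells also held receptors of these ligands. Of 10 listed receptors and partners 6 passed the filter. In SAHA 4 were higher, 1 lower and 1 not called (32.6% of all genes higher and 34.3% lower). In Smarcb1-RE 5 were higher, none lower and 1 not called (39.2% and 38.6%). The higher calls in both include Igsf11 and Selplg, which were kept by the filter through the groups in which they were higher. Pdcd1, which encodes the PD-1 receptor, was at 11.7, 11.4 and 12.0 CPM in Control, 24.4, 30.8 and 31.3 CPM in SAHA and 79.1, 80.0 and 78.6 CPM in Smarcb1-RE. The groups did not overlap, with log2 fold changes of 1.30 ± 0.09 (adjusted p = 5.84e-08, edgeR) and 2.76 ± 0.08 (adjusted p = 2.15e-11). The transcripts of PD-1 and of its ligand Cd274 hence differed in their order of groups.

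Cd28, the costimulatory receptor of Cd86 and Cd80, was at 198 to 220 CPM in Control, 287 to 292 in SAHA and 276 to 277 in Smarcb1-RE, with log2 fold changes of 0.46 ± 0.04 (adjusted p = 8.94e-07, edgeR) and 0.39 ± 0.04 (adjusted p = 1.88e-06). Ctla4, the inhibitory receptor of the same ligands, did not exceed 8 counts, and Icos, Btla and Treml2 had at most 1. Tnfrsf14, the BTLA partner HVEM, was lower in SAHA (-0.29 ± 0.11, adjusted p = 0.0303, edgeR), where its range overlapped that of Control, and higher in Smarcb1-RE (0.94 ± 0.10, adjusted p = 1.58e-06). The VISTA partners Igsf11 and Selplg were higher in both, at 1.09 ± 0.32 and 1.46 ± 0.31 for Igsf11 and 1.09 ± 0.35 and 1.88 ± 0.33 for Selplg, from means of 0.432 and 0.446 CPM in Control. Igsf11 reached the filter's level in 1 and Selplg in 2 of the 3 Control libraries, so both were kept through the groups in which they were higher. None of the 9 values of Igsf11, Selplg and Tnfrsf14 was whole, and 8 of 9 of Cd28 were not, so reads had been divided with other genes. Rgmb, a partner of PD-L2, was at 0.09 ± 0.15 and -0.28 ± 0.16 and was not called in either comparison with Control.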

How the data were processed

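RNA-seq counts of 9 T15 libraries, 3 each of Control, SAHA and Smarcb1-RE, were used, described in the study's methods as biological replicates. As deposited by the authors, the values are Salmon's estimated counts, 1 row per Ensembl gene and 1 column per library, without normalization. Salmon 0.14.1, FastQC 0.11.8, MultiQC 1.7, DESeq2 1.22.2 and the GRCm38 build are named in the submitters' processing notes. Of nonzero values 52.4% were not whole, since Salmon divides reads shared between genes, so values of genes with close copies are uncertain. Besides genes marked so in the text, none of the 9 values was whole for Ms4a1, Elf5, Xcr1 and Xdh, among others. Counts were rounded to whole numbers. Of 35288 identifiers, 99.5% were found in GENCODE M21, which gave names and coordinates. Promoter windows were from RefSeq (GRCm38.p6).

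Groups were compared with the quasi-likelihood test of edgeR 4.0.16 (R 4.3.3), after TMM scaling and filterByExpr at a minimum count of 10, in 1 fit to the 3 groups, with Benjamini-Hochberg adjustment over 13697 genes and a threshold of 0.05. The common biological coefficient of variation was 5.24%. The standard error of a log2 fold change was its size over the root of its F statistic. A check on simulated counts changed 200 genes, as many up as down, and left all others unchanged. Far more genes were called in the data, so the check does not cover changes on that scale. Library totals were 20900424 to 24941408, so 3 counts equalled 0.123 to 0.133 CPM, which covers counting error only. Replicates of a group differed by more than sampling noise (chi-square per gene 2.12 to 15.0). The table had no unused sample columns.

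The members and gene lists were chosen with earlier results of these data known. Named genes were all members, the tested genes of the butyrophilin and receptor lists, the called gene with the largest absolute log2 fold change in each further list, the 5 genes most like Btn1a1 (log2 CPM with prior count 2, average of at least 1) and the nearest tested genes within 100 kb. Markers of other cells were read as lists. Alternatives were median-ratio factors, library totals only, DESeq2 1.42.0, no filter, a minimum of 10 counts in every library, fits to 2 groups at a time, a replicate block, prior count 2 and leaving out each library.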

Additional observations from a re-analysis of the deposited data

How the results depend on the processing

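Of 251 combinations of an alternative and the log2 fold change of a member other than Btn1a1, 246 kept their direction and their side of the threshold, none lost a call, 2 gained a call and 3 changed sign. The sign changes concerned differences near 0 between Smarcb1-RE and Control. Cd274 was at 0.035 with library totals only, and Vsir at 0.12 with library totals only and at 0.020 with at least 10 counts in every library. Leaving out 1 library at a time gave 0 to 1 members lower in Smarcb1-RE than in Control, with Cd274 called without SAHA replicate 1 (-0.14) and Icosl without Smarcb1-RE replicate 1 (-1.27). The number lower in Smarcb1-RE than in SAHA was 3, 2 with at least 10 counts in every library, where Icosl was not tested, and 4 without a filter, where Btnl9 was added (-2.49, adjusted p = 0.00499, edgeR). Of members other than Btn1a1, 4 were higher in SAHA and 2 in Smarcb1-RE than in Control under every alternative. The cause of the gained calls and sign changes was not tested. Over all alternatives including DESeq2, Btn1a1 stayed between 4.72 and 5.11 for SAHA and between 3.47 and 3.87 for Smarcb1-RE. Counts of all called genes stayed within 1.5 times.

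Same-numbered replicates did not deviate together (correlations of deviations -0.0717 to 0.0366 over 9 pairs, and -0.0361 to 0.0506 over 18 pairs with different numbers), so the numbers were not taken as pairs. With a replicate block, 4366 of all genes were higher in SAHA and 5335 in Smarcb1-RE than in Control, and no member's call changed. Without a filter, Cd80, Pdcd1lg2 and Cd276 were not called in any comparison, at counts that give little precision.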
